A study of Homo sapiens with 4 samples.

Results

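The genes described here encode 8 surface antigens of plasma cells, SDC1, CD38, TNFRSF17, TNFRSF13B, SLAMF7, FCRL5, CD27 and ITGA4, out of 19974 protein-coding genes on chromosomes 1 to 22 and X. For each gene, all STAT5A peaks were collected that the authors credited to it by symbol, whatever their annotation class, together with any peak inside the gene or within 1 kb of its ends that was credited to a neighbour. The peaks come from ChIP-seq (chromatin immunoprecipitation and sequencing) of ARP1, an established human multiple myeloma line from bone marrow. Wild-type ARP1 cells were compared with ARP1 cells carrying a knockdown of YTHDF2, a reader of N6-methyladenosine on RNA. Each condition had 1 library pulled down with an antibody to STAT5A and 1 input library without antibody, and 1 peak list. The sample titles call the inputs "input RNA", which was read here as the input of the ChIP-seq. The design text of the series names histone modifications as what was examined, whereas the antibody labels, the titles and the names of the peaks give STAT5A, which was followed here. How the knockdown was made, and whether the line was kept as a clone or pool, is not stated in the labels. Peak lists measure protein on chromatin and not RNA or surface protein, so the plasma cell identity of the line could not be checked against these markers.

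Plasma cells are antibody-secreting cells at the end of B cell development, and myeloma is their malignancy. Some of the antigens studied here help to identify these cells in diagnosis, and several are targets of antibodies or engineered T cells in myeloma treatment. STAT5A is a transcription factor activated by JAK kinases downstream of cytokine receptors, and as a dimer it recognises the palindrome TTCNNNGAA. SDC1 (syndecan-1, CD138) is a heparan sulphate proteoglycan, CD38 an enzyme that consumes NAD, and ITGA4 the alpha chain of integrins that hold lymphoid cells to VCAM1. TNFRSF17 (BCMA) and TNFRSF13B (TACI) are receptors for the survival ligands BAFF and APRIL, and CD27 is the receptor of CD70. SLAMF7 is a self-binding receptor of the SLAM family, and FCRL5 is an Fc receptor-like protein that binds IgG.

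The sequences before the transcript starts are shown first because the genes with and without a STAT5A peak there differed in base composition. They are the 250 bases before an annotated start, from RefSeq (GRCh38.p14), written along the strand of the gene. RefSeq windows were matched for 6 of the 8 genes. TNFRSF17 and SLAMF7 are named only. SDC1 has a window at each of 2 starts, of which the outer is shown. The ITGA4 window lies partly, and the second SDC1 window wholly, inside the RefSeq gene limits. The other windows lie just outside those limits. Capitals mark the CCAAT box (CCAAT or ATTGG) and the GC box (GGGCGG or CCGCCC), each searched on both strands. No 2 marked motifs overlap.
SDC1, chr2:20225476-20225725, minus strand: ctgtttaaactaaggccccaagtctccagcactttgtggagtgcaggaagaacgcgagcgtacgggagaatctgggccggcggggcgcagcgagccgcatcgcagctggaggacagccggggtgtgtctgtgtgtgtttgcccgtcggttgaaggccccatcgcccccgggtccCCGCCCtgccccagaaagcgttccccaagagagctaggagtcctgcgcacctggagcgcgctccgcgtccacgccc
ITGA4, chr2:181457136-181457385, plus strand: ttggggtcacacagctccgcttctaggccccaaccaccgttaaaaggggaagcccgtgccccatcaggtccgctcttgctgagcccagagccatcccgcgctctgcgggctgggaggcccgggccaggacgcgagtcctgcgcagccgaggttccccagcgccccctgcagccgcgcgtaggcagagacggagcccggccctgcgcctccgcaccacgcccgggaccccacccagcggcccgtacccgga
TNFRSF13B, chr17:16972119-16972368, minus strand: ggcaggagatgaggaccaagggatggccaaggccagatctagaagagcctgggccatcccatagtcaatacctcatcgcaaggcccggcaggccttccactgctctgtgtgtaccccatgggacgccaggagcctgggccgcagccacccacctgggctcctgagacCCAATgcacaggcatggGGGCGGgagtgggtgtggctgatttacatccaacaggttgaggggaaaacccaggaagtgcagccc
CD38, chr4:15778078-15778327, plus strand: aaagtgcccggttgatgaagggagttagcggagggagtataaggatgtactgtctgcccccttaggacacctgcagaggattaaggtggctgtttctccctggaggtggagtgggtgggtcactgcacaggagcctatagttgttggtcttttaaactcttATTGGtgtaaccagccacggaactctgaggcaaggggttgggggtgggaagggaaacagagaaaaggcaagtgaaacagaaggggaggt
FCRL5, chr1:157552516-157552765, minus strand: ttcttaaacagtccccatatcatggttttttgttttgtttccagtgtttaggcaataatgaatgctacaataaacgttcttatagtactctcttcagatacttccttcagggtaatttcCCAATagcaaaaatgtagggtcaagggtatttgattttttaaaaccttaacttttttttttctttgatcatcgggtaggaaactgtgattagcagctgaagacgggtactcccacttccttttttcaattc

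The SDC1 window shown held 1 GC box, which began at -76 from the transcript start, and the second SDC1 window held 1 at -68. TNFRSF13B had a CCAAT box at -83 and a GC box at -66, CD38 a CCAAT box at -89 and FCRL5 a CCAAT box at -131. The windows of ITGA4 and CD27 held neither motif. The palindrome TTCNNNGAA, which reads the same on both strands, was in none of the 7 windows of the 6 genes. Among all 22132 windows of protein-coding genes, 5.92% held it, 32.7% held a CCAAT box and 53.7% a GC box. A match, or its absence from this stretch, says nothing of whether a factor binds.

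STAT5A occupancy of this gene group was uneven. SDC1, CD38 and ITGA4 had a promoter peak in both conditions, TNFRSF13B had one in wild type alone, and FCRL5, CD27, TNFRSF17 and SLAMF7 had none. A promoter peak here is one that the authors credited to the gene and placed within 1 kb of a transcript start. Thus 3 of 8 genes had a promoter peak in the knockdown list and 4 of 8 in the wild-type list, against 56.1% and 64.7% of all protein-coding genes. A promoter peak in both lists was found for 3 of the 8, against 53.6% of all genes. In wild type only there was 1 of the 8, against 11.0%, and in knockdown only 0 of the 8, against 2.42%. With 8 genes and 1 list per condition, these counts carry no test.

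Counting every credited or nearby peak, 6 of the 8 genes had at least 1 peak in each list, and they were the same 6 genes. Of all protein-coding genes, 75.0% had such a peak in knockdown, 83.3% in wild type and 73.4% in both. The 6 genes held 14 peaks in the knockdown list and 24 in the wild-type list, whose whole lengths are 31227 and 55269 peaks, a ratio of 1.77. Of the 14 knockdown peaks, 8 shared at least 1 bp with a wild-type peak (57.1%, exact Clopper-Pearson 95% interval 28.9 to 82.3%), against 77.1% of the whole list. Of the 24 wild-type peaks, 7 overlapped a knockdown peak (29.2%, interval 12.6 to 51.1%), against 40.4% of the whole list. TNFRSF13B held 12 of the 24 wild-type peaks, with no overlap, and 1 of the 14 knockdown peaks. All 7 overlapping wild-type peaks therefore lay at other genes. The intervals cover counting error only and take peaks of 1 gene as independent. When the wild-type list was shortened to as many peaks as the knockdown list has, by q-value, 10 of the 24 peaks of these genes stayed. Over the whole wild-type list, 31227 of 55269 peaks stayed. Of the 12 peaks at TNFRSF13B, 3 stayed.

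**Figure D1:**
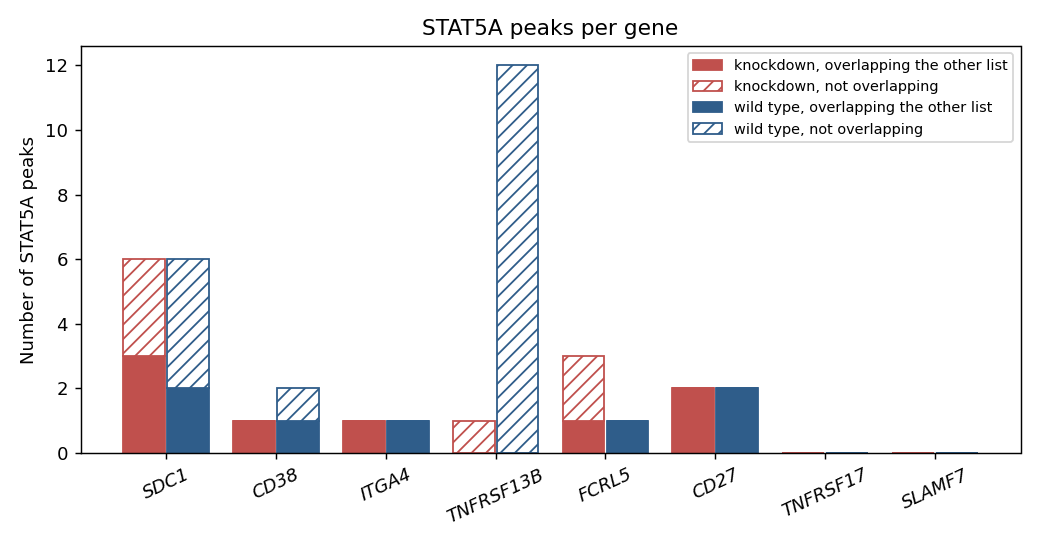
Number of STAT5A peaks per gene (vertical axis) for the 8 genes, with knockdown in red and wild type in blue. Filled parts are peaks that overlap the other list and hatched parts are peaks that do not. TNFRSF13B has 12 wild-type peaks without a knockdown counterpart, and TNFRSF17 and SLAMF7 have no peak.

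Among the peaks of these genes, fold enrichment was moderate. The fold is the authors' own linear value for each peak, and it ranks peaks within a list. Knockdown folds ran from 2.78 to 6.42 with a median of 3.47, against a median of 4.35 over the whole knockdown list, and 10 of the 14 peaks lay below that median. Wild-type folds ran from 2.91 to 15.15 with a median of 4.65, against 6.0 over the whole list, and 17 of the 24 peaks lay below it. TNFRSF13B supplied 10 of these 17. The peaks spanning or just inside the starts of SDC1, CD38 and ITGA4 were above the median of their list in both conditions. For ITGA4 in knockdown the margin was small, at 4.38 against 4.35. That peak was also below the median of knockdown promoter peaks, 4.83. The others were above the promoter median of their list, 4.83 in knockdown and 8.61 in wild type.

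**Figure D2:**
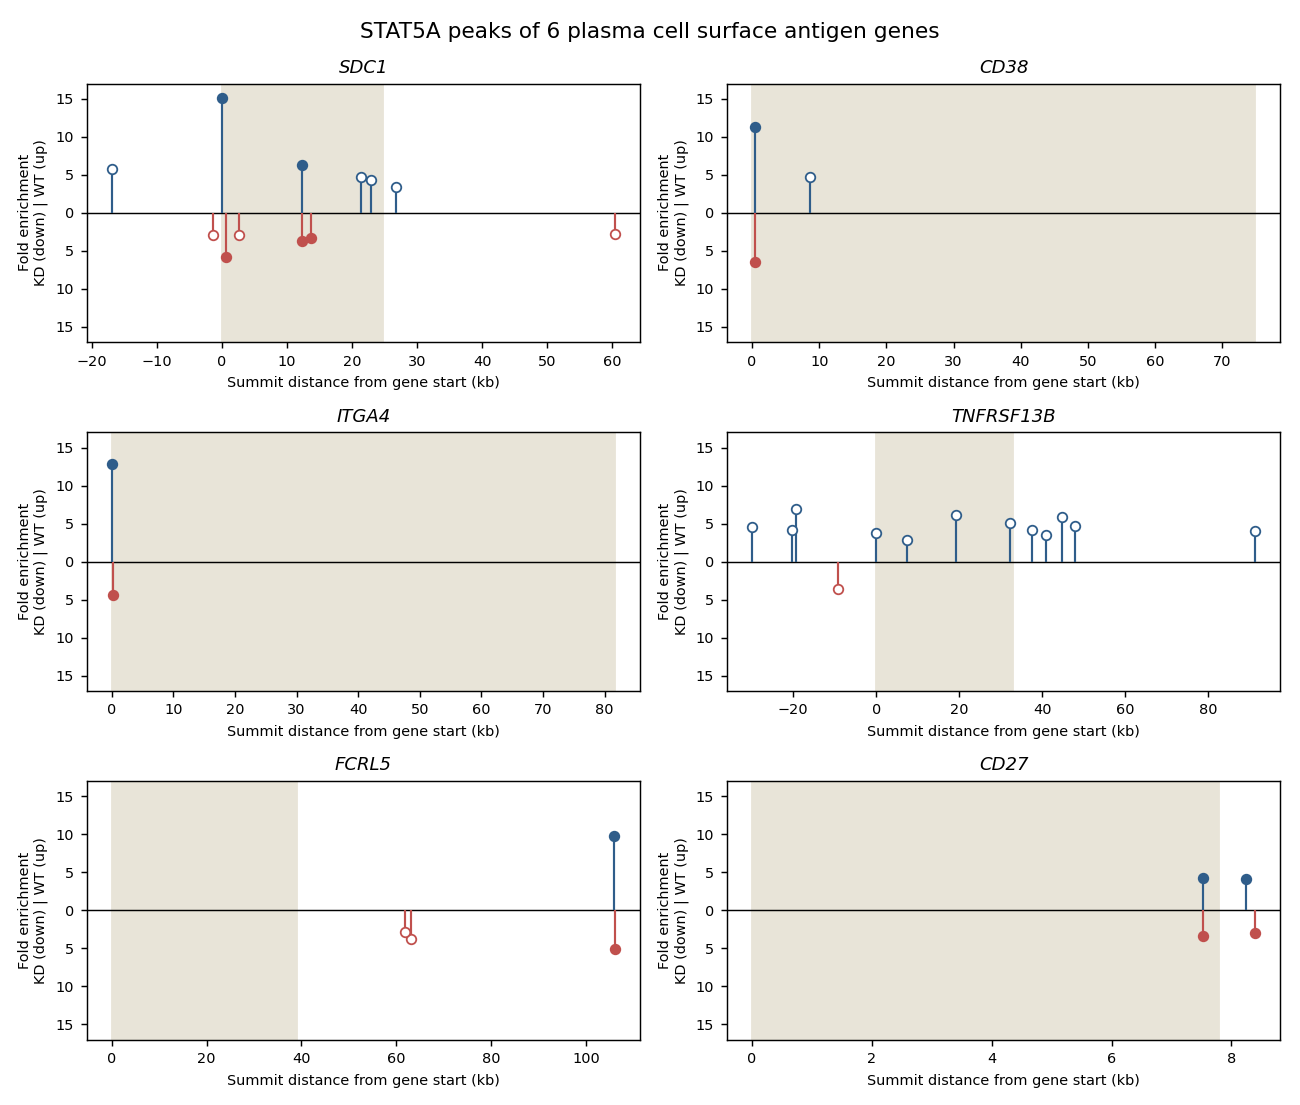
Distance of each peak summit from the RefSeq gene start in kb, positive into the gene (horizontal axis), and fold enrichment (vertical axis, wild type upward in blue, knockdown downward in red) for the 6 genes with peaks. Shading is the gene, filled points overlap a peak of the other list and open points do not. SDC1, CD38 and ITGA4 have a shared peak at the start, whereas those of CD27 and FCRL5 lie at or beyond the far end of the gene.

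At SDC1 (chromosome 2, hg38, gene at 20200797 to 20225475, minus strand), a broad STAT5A peak in each list covered the transcript starts of both SDC1 windows. The knockdown peak spanned chr2:20223451-20225780 with a fold of 5.81 and an authors' q-value of 1.95e-24, and the wild-type peak chr2:20223422-20226293 with a fold of 15.15 and a q-value of 4.99e-65. The knockdown peak lay entirely inside the wild-type peak. Their widths, 2330 and 2872 bp, compare with median promoter peak widths of 622 and 763 bp in the respective lists. Of the promoter peaks in the same list, 68.4% had a lower fold in knockdown and 81.5% in wild type.

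SDC1 was also the gene with most knockdown peaks in the group, with 6 in each list. Inside its first intron, about 12 to 14 kb from the gene start, the wild-type list had 1 peak of 1781 bp and fold 6.27 at chr2:20211610-20213390. The knockdown list had 2 peaks under it, with folds of 3.30 and 3.70. The knockdown list placed 2 further small peaks, with folds of 2.89 and 2.88, on either side of its strongest promoter peak. They lay 515 and 496 bp away from the wild-type promoter peak without touching it. The peak with a fold of 2.89 was itself a promoter peak by the definition above, 481 bp from a transcript start. The last knockdown peak, with a fold of 2.78, lay 35.6 kb beyond the 3′ end. Wild type alone had peaks in the 3′ UTR class with folds of 4.38 and 4.67, 1 peak 1.8 kb downstream of the gene with a fold of 3.45, and 1 peak 16.6 kb upstream with a fold of 5.70. The nearest knockdown peaks to these 4 were 7.4 to 15.1 kb away. Thus the shared SDC1 signal was at the promoter and in the first intron. The peaks found in a single list were weaker than the strongest promoter peak of that list.

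At CD38 (chromosome 4, gene at 15778328 to 15853232, plus strand), the promoter peak began just inside the gene in both lists. It spanned chr4:15778419-15779141 with a fold of 6.42 and a q-value of 1.10e-15 in knockdown. In wild type it spanned chr4:15778347-15779089 with a fold of 11.23 and a q-value of 7.90e-33. The peak edges were 91 and 19 bp past the RefSeq gene start, so that none of the 250 bases printed above for CD38 lay under a peak. The summits were 401 and 501 bp into the gene, 100 bp apart. A lower fold was found for 76.1% of knockdown and 66.2% of wild-type promoter peaks, and CD38 had the highest fold of any knockdown peak in the group. A wild-type peak with a fold of 4.73 at chr4:15786726-15787174, in the first intron, had no knockdown counterpart.

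At ITGA4 (chromosome 2, gene at 181457205 to 181538940, plus strand), each list had a single peak over the transcript start and none along the rest of the 81.7 kb gene. The knockdown peak spanned chr2:181457163-181458358 with a fold of 4.38 and a q-value of 1.56e-09. The wild-type peak spanned chr2:181457026-181458301 with a fold of 12.89 and a q-value of 1.10e-45. The peaks shared 1139 bp, and their summits, 253 and 53 bp past the gene start, were 200 bp apart. Within its list the ITGA4 peak stood at different ranks, with 38.5% of knockdown and 73.7% of wild-type promoter peaks having a lower fold.

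The wild-type fold divided by the knockdown fold of the strongest promoter peak was 2.61 for SDC1, 1.75 for CD38 and 2.94 for ITGA4. Over the 10715 genes with a promoter peak in both lists its median was 2.33, and 61.7%, 24.0% and 73.7% of those genes had a lower value, respectively. The 3 genes therefore lay on both sides of a difference shared by the lists as a whole. Depth is unknown, so this ratio is a description of the lists and not a measured change in binding. By the pair of promoter folds, on the log2 scale and over 2 lists, the gene nearest to SDC1 was PHC2 (5.81 in knockdown and 15.2 in wild type). The nearest to CD38 was UBL4A (6.41 and 11.22), and the nearest to ITGA4 was COX14 (4.38 and 12.89).

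**Figure D3:**
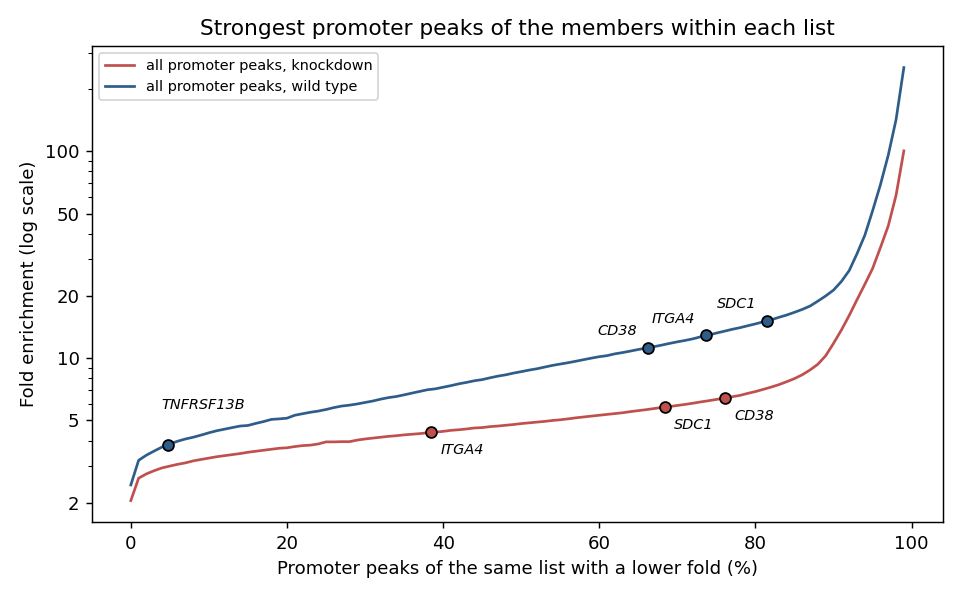
Fold enrichment (vertical axis, log scale) of the strongest promoter peak of each gene against the percentage of promoter peaks in the same list with a lower fold (horizontal axis). Lines are all promoter peaks of the list up to the 99th percentile, with knockdown in red and wild type in blue. SDC1, CD38 and ITGA4 lie between 38.5 and 81.5%, and TNFRSF13B at 4.80% in wild type.

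TNFRSF13B (chromosome 17, gene at 16939081 to 16972118, minus strand) differed most between the lists in number of peaks. The wild-type list credited 12 peaks to it and the knockdown list 1, and none of these 13 peaks overlapped a peak of the other list. The wild-type promoter peak was narrow and weak. It spanned chr17:16971983-16972256, covered the start and 138 of the 250 bases printed above, and had a fold of 3.82 and a q-value of 3.72e-04. Of the wild-type promoter peaks, 4.80% had a lower fold. The other 11 wild-type peaks had folds from 2.91 to 6.91. By position, 4 of the 12 peaks, the promoter peak included, overlapped the gene, 5 lay beyond its 3′ end and 3 lay upstream. The highest fold was that of an intergenic peak 19.3 kb upstream, at chr17:16991447-16991679. The knockdown peak, at chr17:16981087-16981534, lay 9.0 kb upstream with a fold of 3.63 and a q-value of 1.16e-03.

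The number of wild-type peaks without a knockdown counterpart at TNFRSF13B was reached by 389 protein-coding genes (1.95%), long and short genes counted alike. Within 500 kb of the gene there were 19 knockdown and 46 wild-type peaks, a ratio of 2.42, against 1.93 on chromosome 17 and 1.77 over all chromosomes. Of the 12 wild-type peaks, 10 had a fold below the median of their list. With the lists at equal length, 3 of the 12 stayed and the promoter peak did not, so that no gene of the group then had a promoter peak in wild type alone.

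FCRL5 (chromosome 1, gene at 157513377 to 157552515, minus strand) had no peak inside the gene or within 1 kb of it. The peaks credited to it lay beyond its 3′ end. The shared one spanned chr1:157446280-157446779 in knockdown, with a fold of 5.03, and chr1:157446225-157446831 in wild type, with a fold of 9.74. It was 66.6 and 66.5 kb from the gene, and its wild-type fold was the highest of any wild-type peak in the group outside the promoter peaks. The knockdown list alone had 2 weaker peaks, with folds of 3.70 and 2.82, at 24.0 and 22.6 kb from the gene. The nearest wild-type peak to them was the shared one, 42.3 and 43.7 kb away. The lists credit each peak to 1 gene, and no measurement here links these distal peaks to FCRL5.

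CD27 (chromosome 12, gene at 6443892 to 6451713, plus strand) had no peak credited to it, but a shared peak lay in its last part. It spanned chr12:6451097-6451545 in knockdown with a fold of 3.31, and chr12:6451179-6451512 in wild type with a fold of 4.30. The authors credited it to the start of CD27-AS1, an antisense gene, and ChIP reads carry no strand of transcription. A second shared peak, credited to the neighbour TAPBPL, lay 462 and 323 bp past the end of CD27 with folds of 2.90 and 4.08. Just outside the limit of 1 kb was a wild-type peak of TAPBPL with a fold of 3.22, 1369 bp past the end. The peak nearest to the CD27 start was 7.2 kb away in knockdown and 7.3 kb in wild type. All 4 peaks had a fold below the median of their list.

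TNFRSF17 (chromosome 16, gene at 11965210 to 11968068) and SLAMF7 (chromosome 1, gene at 160739057 to 160754821) had no peak by any part of the rule, as had 15.0% of protein-coding genes. The nearest peak to TNFRSF17 was 8.2 kb away in knockdown, with a fold of 2.54, and 8.1 kb away in wild type, with a fold of 7.28. Both were credited to SNX29. The nearest peak to SLAMF7 was 173.6 kb away in knockdown, with a fold of 4.21, and 47.1 kb away in wild type, credited to LY9 with a fold of 6.05. A missing peak means that none passed the authors' threshold, a q-value under 0.05, and with unknown depth it does not show that STAT5A was absent.

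The windows under a peak were richer in G and C than those under none, CD38 among the latter because its peaks began past the start. The share of G and C was 72.8% in the ITGA4 window and 66.4 and 75.2% in the SDC1 windows, all of which were under a peak in both lists. It was 62.0% for TNFRSF13B, whose window was under a wild-type peak only. It was 52.4% for CD38, 46.0% for CD27 and 34.8% for FCRL5, whose windows were under no peak. Across all 22132 windows, 48.3% overlapped a knockdown peak and 61.8% a wild-type peak. Where G and C made up less than 40%, the shares were 0.359 and 0.299%, rising to 81.4 and 97.8% where they made up 70% or more. CpG dinucleotides numbered 25 in the ITGA4 window, 23 and 21 in those of SDC1, and 5, 3, 3 and 2 in those of TNFRSF13B, CD38, FCRL5 and CD27. These values are a description, and the part of base composition in the peaks was not tested.

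**Figure D4:**
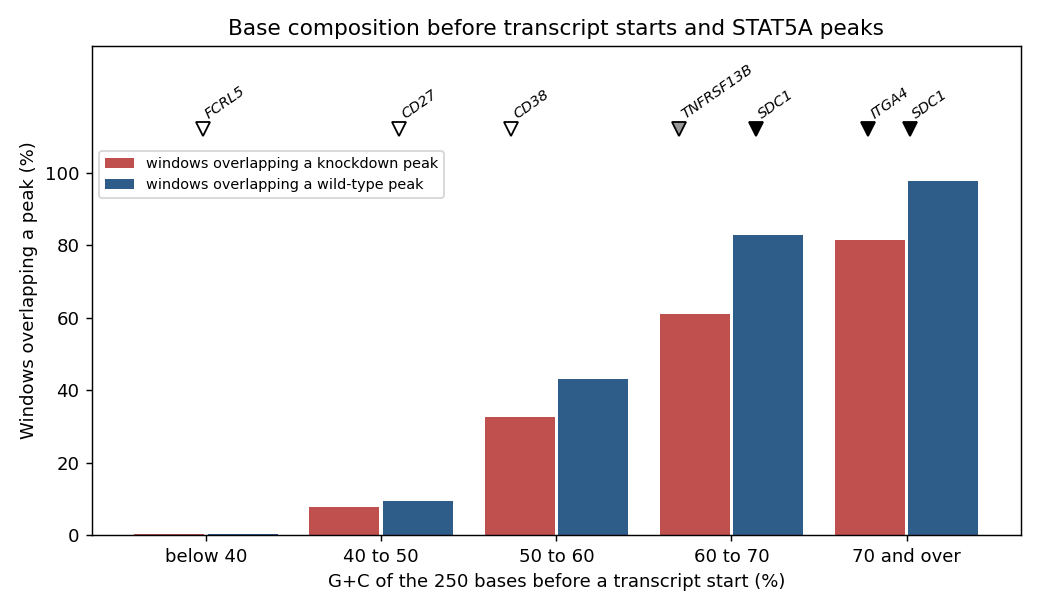
Percentage of windows of 250 bases before a transcript start that overlap a STAT5A peak (vertical axis) by their share of G and C (horizontal axis), for all protein-coding genes, with knockdown in red and wild type in blue. Triangles place the windows of the members on the same horizontal scale, black where under a peak in both lists, grey in wild type only and white in neither. The shares climb from 0.359 and 0.299% to 81.4 and 97.8%.

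The listed genes that work with these antigens had a promoter peak in both lists or in neither. A promoter peak in a single list was uncommon among all protein-coding genes too. It was found for 11.0% in wild type only and 2.42% in knockdown only. Of 16 ligands, partners and adaptors, 10 had a promoter peak in knockdown and the same 10 in wild type (62.5%). The shares over all protein-coding genes were 56.1% in knockdown, 64.7% in wild type and 53.6% in both. The highest wild-type folds were those of SIVA1, a proapoptotic protein that binds the CD27 tail (13.04 in knockdown, 60.0 in wild type), ITGB1, the beta chain that pairs with ITGA4 (7.5 and 18.92), and TRAF6, an adaptor of TNF receptors (5.21 and 16.39). The other 6 genes, named here with their values known, are TNFSF13B and TNFSF13, which encode BAFF and APRIL, CD70, VCAM1, the CD38 ligand gene PECAM1, and SH2D1B, an adaptor of SLAM receptors.

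Of 30 other antigens of plasma cells and B cells, 12 had a promoter peak in knockdown and 14 in wild type, 10 of them in both. The shares over all protein-coding genes were 56.1%, 64.7% and 53.6%. In wild type only there were 4 of the 30, against 11.0% of all genes, and in knockdown only 2, against 2.42%. TNFRSF13C, the BAFF receptor (6.01 and 14.32), CD47, which inhibits phagocytosis (6.57 and 13.91), and the hyaluronan receptor CD44 (4.03 and 12.15) had the highest wild-type folds. Among those in wild type only were the B cell receptor chain CD79B (6.50), CD200 (5.67) and the low-affinity IgE receptor FCER2 (3.92). In knockdown only were GPRC5D, a myeloma antigen (2.96), and NCAM1 (3.76), whose peak overlapped a wild-type peak that was not a promoter peak of NCAM1.

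The last list held 20 surface genes typical of T cells, NK cells, myeloid cells, red cell and platelet lineages or progenitors. Of these, 4 had a promoter peak in knockdown and 9 in wild type, 4 of them in both. The shares over all protein-coding genes were 56.1%, 64.7% and 53.6%. In wild type only there were 5 of the 20, against 11.0% of all genes. The highest wild-type folds were those of the myeloid integrin ITGAM (9.22, wild type only) and the T cell genes CD7 (4.43 and 7.09) and CD8A (4.67 and 6.78). CD34 (6.08), CD14 (5.09), KLRD1 (3.79) and CD5 (3.39) were also in wild type only. The ITGAM peak overlapped a knockdown peak that was not a promoter peak of ITGAM. With the wild-type list at the length of the knockdown list, 5 of the 20 had a promoter peak in wild type. The share over all protein-coding genes was not recomputed for the shortened list, which kept 31227 of 55269 peaks. No list was tested against another.

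**Figure D5:**
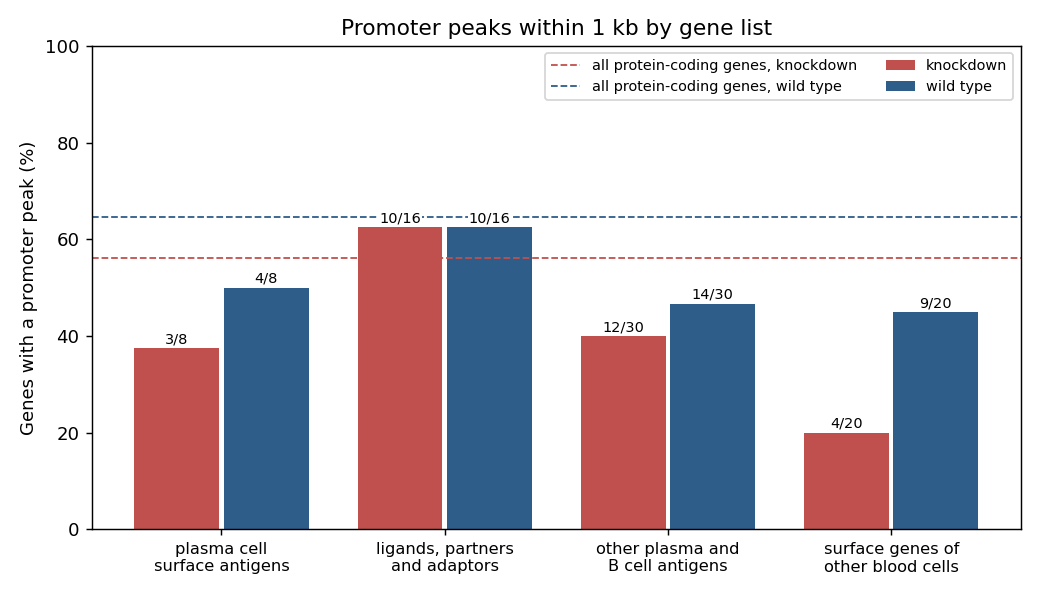
Percentage of genes with a STAT5A promoter peak within 1 kb (vertical axis) in each gene list, with knockdown in red and wild type in blue and the counts above the bars. Dashed lines are all protein-coding genes, at 56.1% and 64.7%. The 8 antigen genes stand at 3 and 4 of 8.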

How the data were processed

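Groups were taken from the sample titles. Per the submitters' processing notes, cutadapt, Trimmomatic, FastQC, Bowtie2, MACS2 and the hg38 assembly were used, with no versions. The software that annotated the peaks is not stated. Each deposited list gives a fold enrichment per peak, a linear ratio whose denominator is not stated, and the authors' q-value (an adjusted p-value) on a linear scale, and every q-value is under 0.05. Only the peak lists were used, and the depth behind them is unknown. No test between conditions was possible with 1 list each.

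Peaks were matched to genes by gene identifier and by position against RefSeq (GRCh38.p14), and peaks were called shared at an overlap of 1 bp. Promoter windows are 250 bases and came from RefSeq for 15812 genes. The counting was tested on simulated data. Python 3.11.15, numpy 2.4.6, pandas 2.3.3, scipy 1.17.1 and matplotlib 3.10.9 were used. The members and lists were chosen with earlier results of these data known. The rule named all 8 members and, of each other list, the genes occupied in 1 peak list only and up to 3 of highest wild-type fold, plus for each member with a promoter peak in both lists the gene nearest to it by fold. Not every gene under this rule is reported here. Alternatives were stricter q-values and folds, equal list lengths, and other rules for crediting, promoters, overlap and merging.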

Additional observations from a re-analysis of the deposited data

How the results depend on the processing

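The alternatives numbered 13. Of 104 recomputed counts, 88 stayed within 1.5 times the reported value. Shortening the wild-type list left the knockdown list as it was. Knockdown counts other than overlaps could therefore not move under that setting, yet they are among the 88. For small counts the factor is wide, and a change from 3 to 2 stays within it. With a fold of at least 5 in both lists, 3 members had a knockdown peak, with 3 knockdown peaks of which 3 overlapped wild type, and the wild-type list had 10 member peaks of which 3 overlapped knockdown. The knockdown promoter counts were then 6 for ligands, partners and adaptors and 5 for other plasma cell and B cell antigens. They were 0 for surface genes of other blood cells. The wild-type counts of these lists at the same cut were 10, 12 and 6. A fold of 5 lay at the 54th percentile of all knockdown promoter peaks, and between the 17th and 18th in wild type. Shares over all protein-coding genes were not recomputed under any alternative. With summits within 100 bp required, 3 member peaks of each list were shared. With peaks inside the gene or within 1 kb only, the members had 8 knockdown and 13 wild-type peaks. With equal list lengths, they had 10 wild-type peaks. For surface genes of other blood cells, the wild-type promoter count was 5 with equal lengths, 5 with any peak within 1 kb of the RefSeq gene start and 4 with the summit within 1 kb of it. Counts of members with a promoter peak ranged from 2 to 3 in knockdown and from 3 to 4 in wild type. At q under 0.001, TNFRSF13B had 9 wild-type peaks and 0 knockdown peaks. The cause of these shifts was not tested. No paired analysis was possible because each condition has 1 peak list. Unknown depth limits every comparison of peak numbers.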

Other observations

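The listed genes of the same families as SLAMF7 and FCRL5, grouped after their values were seen, had no promoter peak in either list. Family members outside the lists were not counted. Of all protein-coding genes, 56.1% had a promoter peak in knockdown and 64.7% in wild type. The absence of a promoter peak held for 6 SLAM family genes (SLAMF7, SLAMF1, SLAMF6, LY9, CD84 and CD48), of which 4 had no credited or nearby peak at all. It also held for 6 FCRL genes on chromosome 1 (FCRL1 to FCRL5 and FCRLA), of which 4 had no peak at all. Of all protein-coding genes, 15.0% had no peak in either list. The 4 TRAF genes of the lists, which encode adaptors for receptors such as TNFRSF17 and CD27, were likewise grouped with their values known. All 4 had a promoter peak in both lists, as had 53.6% of all protein-coding genes.

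Across all 22132 windows before transcript starts, those with the palindrome TTCNNNGAA overlapped a peak in 34.0% (knockdown) and 43.3% (wild type) of cases, and windows without it in 49.2 and 62.9%. The median share of G and C was 54.4% in windows with the palindrome and 62.4% in those without. Windows with a GC box overlapped a peak in 68.8 and 86.8% of cases, and windows without one in 24.4 and 32.7%, and their median share of G and C was 68.4% against 52.4%. The part of base composition in these shares was not tested.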
